A study of Mus musculus with 2 samples.

Results

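The replication-dependent histone genes are the 67 protein-coding genes on chromosomes 1 to 19 of GENCODE mouse M21 whose symbols begin Hist1h, Hist2h, Hist3h or Hist4h, of 20807 coding genes on those chromosomes. Each was described by the accessible regions within 1000 bp of any of its annotated starts, and a gene with at least 1 such region is called open here. The value of an open gene is the height of its highest region, a signal that the authors deposited for each region. Hist1 holds 54 of the genes, in a group of 23 and a group of 31 on chromosome 13. Hist2 holds 10 on chromosome 3, Hist3 holds 2 on chromosome 11 and Hist4 holds 1 on chromosome 6. By the protein made they comprise 6 linker histone H1 genes and 18 H2A, 18 H2B, 12 H3 and 13 H4 genes for the core of the nucleosome.

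These genes supply the histones that package newly copied DNA, and their messages accumulate while a cell replicates its genome. Most lack introns, and their messages end in a conserved stem and loop, bound by the stem-loop binding protein, in place of a poly(A) tail. The genes lie in clusters that gather in the nucleus with the coactivator NPAT in a body that also holds the machinery for their transcription and 3′ end processing. Replacement histones, made from scattered genes with ordinary polyadenylated messages, are deposited throughout the cell cycle and in cells that no longer divide, such as neurons.

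The 3′ sequence matched the class. The letters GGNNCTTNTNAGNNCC lay within 150 bases after the stop codon on the coding strand in 65 of the 67 genes, against 6 of 20574 other coding genes with an annotated stop codon (0.0292%). Hist1h2an and Hist2h2be had no match. The 3 most frequent forms are shown because they define the class, with the number of genes that carry each; they are mm10 sequence read along the gene.
Stem-loop in 41 genes: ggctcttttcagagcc
Stem-loop in 9 genes: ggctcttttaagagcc
Stem-loop in 8 genes: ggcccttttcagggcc

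Chromatin accessibility had been measured by DNase-seq, which maps DNA that the nuclease DNase I can reach. The tissue, labelled layer of hippocampus, came from B6CASTF1/J male mice at 10 days of age. These animals are first-generation hybrids of C57BL/6J and CAST/EiJ. The single group held 2 libraries, replicates 1 and 2, from 1 tissue sample each. The labels describe each sample as 3 males and give both the same donor, so whether they share animals is not known. No treatment, mutation or second group was labelled, and no test was made: values are given for each library, and the spread is between these 2 samples. The lists held 54546 regions in replicate 1 and 74278 in replicate 2, with 226223 and 345745 footprints, short protected stretches within accessible DNA. The number of reads was not known, and no counting error could be attached to a height or to a missing region. All 8 neuronal markers looked up (Rbfox3, Map2, Tubb3, Snap25, Syt1, Neurod2, Prox1 and Gria1) were open in both libraries, against 60.5% of all coding genes, at median heights of 2.05 in replicate 1 and 2.26 in replicate 2. Hippocampus is a mixture of cell types, and few cells with an open site cannot be told apart from slight opening in many cells.

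Most of the histone genes were open. In replicate 1, 52 of the 67 (77.6%) had a region, against 60.8% of all coding genes. In replicate 2, 55 (82.1%) had one, against 65.3%. The same 52 genes of replicate 1 were open in both libraries, against 60.5% of all coding genes. Hist1h2bb, Hist1h3d and Hist2h3c2 were open in replicate 2 alone, and 12 genes had no region in either library. By cluster, the genes open in both libraries were 41 of 54 in Hist1, 8 of 10 in Hist2, both genes of Hist3 and the single gene of Hist4. By type they were 4 of 6 for H1, 14 of 18 for H2A, 14 of 18 for H2B, 9 of 12 for H3 and 11 of 13 for H4. With the longer, more permissive region lists, 56 genes were open in replicate 1 and 57 in replicate 2, against 66.1% and 69.7% of all coding genes, and 55 were open in both, against 65.7%.

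Along chromosome 13 the histone genes stood in 2 groups. The first spans chr13:21715763-22043676, 327.9 kb, and held 39 regions in replicate 1 and 42 in replicate 2. Of these, 14 in replicate 1 and 21 in replicate 2 lay within 1000 bp of a histone start, 3 and 2 lay at other coding genes, and the others lay elsewhere. In the second group, chr13:23531050-23934851, 403.8 kb, 27 of 34 regions in replicate 1 and 31 of 39 in replicate 2 lay at histone starts. The Hist2 genes on chr3:96219865-96270132 had all of the 11 regions of replicate 1 and all of the 13 of replicate 2 at histone starts. Density was 11.9 and 12.8 regions per 100 kb in the first Hist1 group, 8.42 and 9.66 in the second and 21.9 and 25.9 in Hist2 (replicates 1 and 2), against 2.15 and 2.94 over the autosomes. Each group was cut from its first to its last histone gene, and the densities were not adjusted for the number of genes. The genes are close to each other, so 1 region could serve several of them. The 52 open genes of replicate 1 had 39 distinct highest regions, and the 55 of replicate 2 had 43. That region covered the gene's own promoter, taken as 250 bp before to 50 bp after the start, in 42 genes in replicate 1 and in 44 in replicate 2. With regions at the own promoter alone, 49 genes were open in both libraries, against 55.8% of all coding genes.

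**Figure D1:**
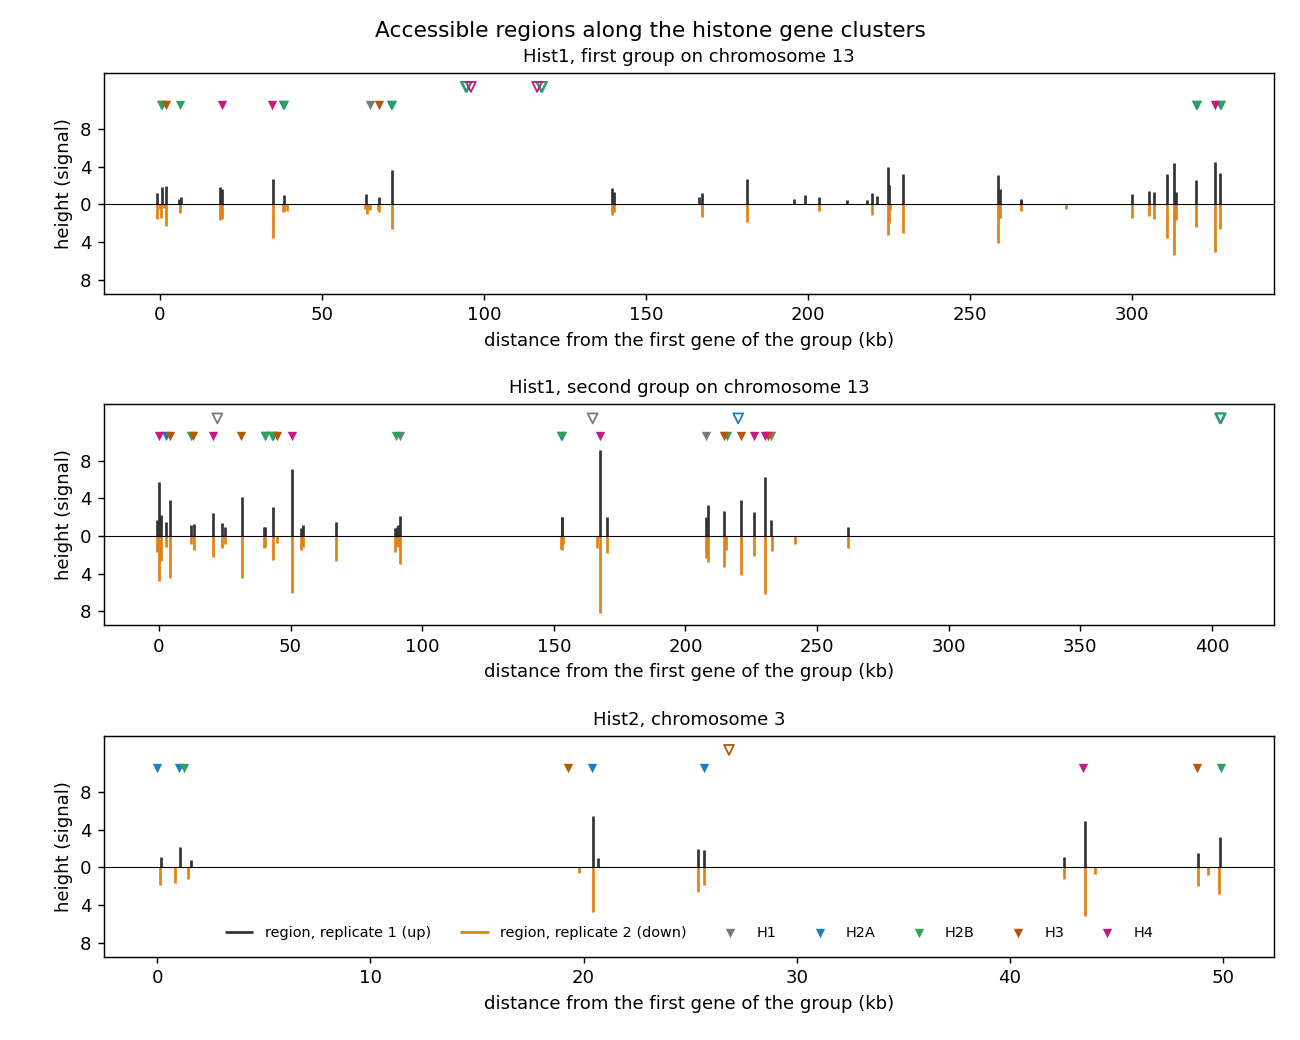
Regions (vertical lines) by distance from the first gene of each group, with heights in replicate 1 drawn up and in replicate 2 drawn down (authors' signal). Triangles mark the starts of histone genes by type, and the open triangles in the upper row mark the 12 genes with no region in either library, 6 of them together in the first Hist1 group, where no region was listed.

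Heights at the open histone genes were close to the middle of the range of all genes in replicate 1 and below it in replicate 2. Their median was 2.49 in replicate 1 and 2.40 in replicate 2 (2.44 ± 0.0621 over both libraries, SD, n = 2). The median over all open coding genes was 2.65 in replicate 1 and 3.23 in replicate 2 (2.94 ± 0.407, SD, n = 2). Of the 52 genes open in both libraries, 23 exceeded the median of all open coding genes in replicate 1 and 14 did in replicate 2. H4 genes had the highest median of the 5 types, at 4.98 in replicate 1 and 5.06 in replicate 2, and H3 genes followed at 3.19 and 2.85. In both libraries the H3 median was the value of Hist2h3b, which came from the region of its neighbour Hist2h2bb. Averaged over both libraries, the H3 median of 3.02 became 2.24 within 500 bp, beside 2.11 for H2A. With regions at the own promoter alone it was 2.75, beside 1.97 for H2A. The medians were 2.17 and 2.11 for H2A, 1.94 and 1.74 for H2B, and 1.93 and 2.22 for H1. H1 stood last in replicate 1 and H2B in replicate 2, so the order among these 3 was not the same in both libraries. The ranges of the types overlapped: H4 heights ran between 1.82 and 9.11 in replicate 1 and H2A heights between 1.01 and 5.46. By cluster the medians were 2.51 and 2.32 in Hist1, 2.68 and 2.57 in Hist2, and 2.08 and 2.27 in Hist3, beside the 1 gene of Hist4, Hist4h4, with 6.07 and 8.04.

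**Figure D2:**
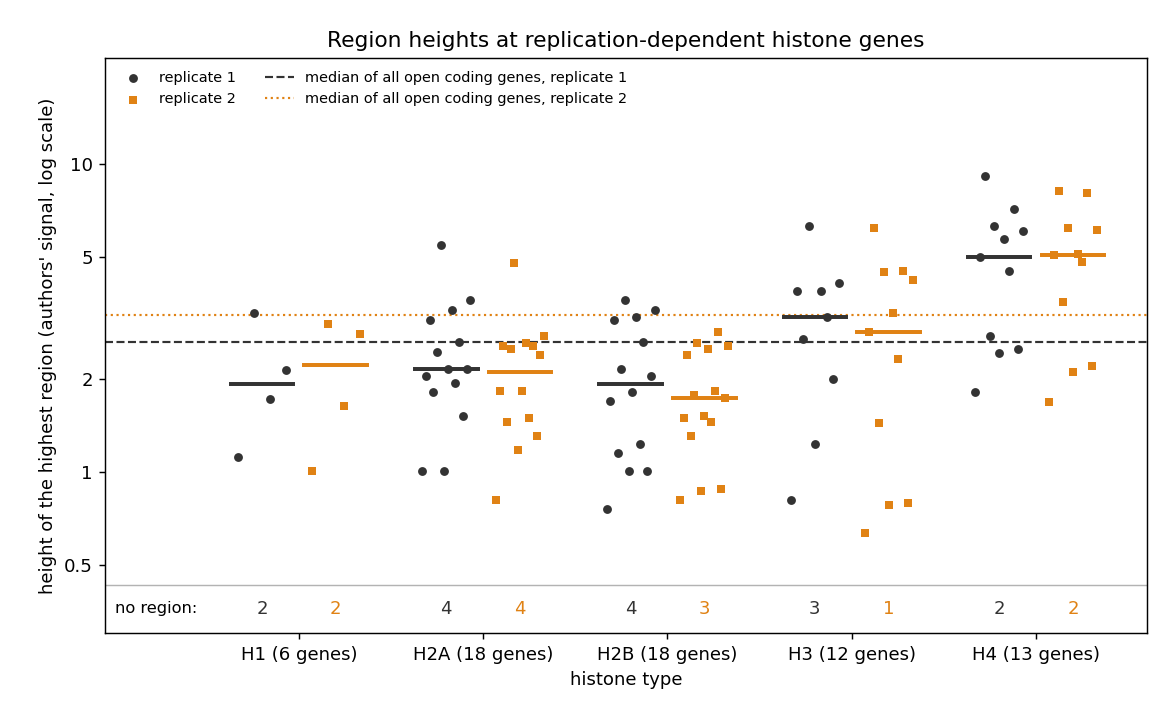
Height of the highest region within 1000 bp of a start (authors' signal, log scale) for each open histone gene, by type and library; bars are medians, and the numbers in the bottom row count the genes with no region. The H4 medians, 4.98 in replicate 1 and 5.06 in replicate 2, lie above the medians of all open coding genes (dashed and dotted lines), and those of H2A, H2B and H1 lie below them.

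H1 histones bind the linker DNA between nucleosomes. Hist1h1c had 3.27 in replicate 1 and 2.80 in replicate 2, in regions after its start, 873 and 813 bp from it. Lower regions at its start had 2.04 in replicate 1 and 2.37 in replicate 2. Hist1h1e had 2.14 in replicate 1 and 3.02 in replicate 2, over its own start. Hist1h1a had 1.73 and 1.63, also over its start. Hist1h1b had 1.12 and 1.01, in a region past its start. The highest gene of the type in each library was not the same, and all 4 values per library lay between 1.01 and 3.27.

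Hist1h1t, which encodes the H1 of developing sperm cells, had no region in either list of either library, and no base within 1000 bp of its start was listed with a false discovery rate of the cut rate up to 0.05. All words in its surroundings were unique in the genome. The last 200 bases before the start are shown for Hist1h1c and Hist1h1t because both hold an H1 box (AAACACA) followed by a CCAAT box, drawn in capitals; the H1 box lies at -113 in Hist1h1c and at -117 in Hist1h1t, counted from the start, and only Hist1h1c was open. Each is mm10 sequence on the strand of the gene.
Hist1h1c, chr13:23738608-23738807, plus strand: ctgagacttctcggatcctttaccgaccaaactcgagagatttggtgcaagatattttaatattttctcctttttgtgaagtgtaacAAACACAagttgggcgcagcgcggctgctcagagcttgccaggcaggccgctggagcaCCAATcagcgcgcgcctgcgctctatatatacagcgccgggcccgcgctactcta
Hist1h1t, chr13:23695614-23695813, plus strand: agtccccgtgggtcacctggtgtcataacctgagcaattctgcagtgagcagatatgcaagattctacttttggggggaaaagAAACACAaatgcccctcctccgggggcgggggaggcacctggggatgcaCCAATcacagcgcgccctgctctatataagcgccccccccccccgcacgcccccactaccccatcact

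Hist1h1d is the other H1 gene without a region. Its GENCODE start lies 1828 bp before the first coding base and 1770 bp from the RefSeq start. Around the RefSeq start, Hist1h1d was open in both libraries, with heights of 1.40 in replicate 1 and 1.23 in replicate 2. Of the 62 histone genes matched to a RefSeq start, 61 had one within 100 bp of a GENCODE start. With RefSeq starts, 53 genes were open in both libraries, against 58.5% of all coding genes, and 5 of 6 H1 genes were among them.

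H2A and H2B form dimers that are part of the core of the nucleosome, and their genes often stand head to head. There were 12 such H2A/H2B pairs, with 175 to 305 bp between the starts (median 258.5), which account for 24 of the 36 genes of these types. In 9 pairs, a single region was the highest for both genes in replicate 1, and the same held for those 9 in replicate 2. The other 3 pairs, Hist1h2bq with Hist1h2ao, Hist1h2ap with Hist1h2br, and the testis pair Hist1h2ba with Hist1h2aa, had no region. The DNA between the starts of Hist1h2an and Hist1h2bp is shown because it lay under the highest shared region of replicate 1. Capitals mark matches to the CCAAT box (CCAAT, or ATTGG on the other strand) and to the TATA box (TATAAA, or TTTATA on the other strand); Hist1h2an is transcribed to the left and Hist1h2bp to the right, and the build is mm10.
Hist1h2an/Hist1h2bp, chr13:21787219-21787460, plus strand: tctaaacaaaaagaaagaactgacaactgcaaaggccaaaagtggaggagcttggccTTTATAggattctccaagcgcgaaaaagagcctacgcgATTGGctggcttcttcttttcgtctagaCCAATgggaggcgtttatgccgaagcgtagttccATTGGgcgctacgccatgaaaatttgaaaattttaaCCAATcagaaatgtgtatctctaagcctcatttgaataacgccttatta

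This stretch holds 4 CCAAT boxes and 1 TATA box. The region over it had a height of 3.63 in replicate 1 and 2.56 in replicate 2, at chr13:21787261-21787520 and chr13:21787241-21787580. The region shared by Hist1h2ag and Hist1h2bj was lower in replicate 1, with 3.37, and slightly higher in replicate 2, with 2.63. The lowest shared regions were those of Hist1h2ae and Hist1h2bg, with 1.01 and 1.31, and of Hist1h2ak and Hist1h2bn, with 1.01 and 0.814. The region of Hist1h2ae and Hist1h2bg lay past the start of Hist1h2ae, 66 bp from it in replicate 1 and 20 bp in replicate 2, and not between the starts. In replicate 2 the region of Hist2h2ac and Hist2h2be lay at the start of Hist2h2ab, 660 and 899 bp from their own starts. Because both genes of a pair take their value from 1 region, they are not separate observations.

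Outside the pairs, Hist2h2aa2 had the highest value of any H2A gene, 5.46 in replicate 1 and 4.75 in replicate 2. Its near copy Hist2h2aa1 had 1.94 in replicate 1 and 2.57 in replicate 2. The surroundings of the copies share 56.6% of their words of 32 bases, so such words do not tell the copies apart. Hist2h2bb was the highest H2B gene by mean rank over both libraries, with 3.19 in replicate 1 and 2.85 in replicate 2. Hist1h2bm had 0.761 and 0.879, among the lowest values of all histone genes. Hist1h2bb was the H2B gene open in replicate 2 alone, with a height of 1.52 there; in replicate 1 the lowest false discovery rate near its start was 0.00383.

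The octamer (ATTTGCAT, both strands), an element of H2B promoters that the POU factor Oct-1 binds, lay within 250 bp before to 50 bp after the start in 15 histone genes, 7 of H2A and 8 of H2B. It was in 22.4% of the histone promoters, against 1.59% of all coding promoters. The windows of paired genes overlap, and an octamer between them is counted for both. The 200 bases before the start of Hist2h2bb are shown because they hold an octamer at -100, with a CCAAT box before it at -131 (capitals, mm10, strand of the gene).
Hist2h2bb, chr3:96269552-96269751, plus strand: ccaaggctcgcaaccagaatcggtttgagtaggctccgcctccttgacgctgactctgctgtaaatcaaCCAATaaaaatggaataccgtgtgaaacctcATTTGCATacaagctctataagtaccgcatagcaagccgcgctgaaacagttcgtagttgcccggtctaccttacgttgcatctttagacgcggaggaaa

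No footprint overlapped the octamer in any of 11 open histone genes that hold it in replicate 1, and 1 of 12 had one in replicate 2. Among other open coding genes with the letters, 10.8% in replicate 1 and 17.4% in replicate 2 had a footprint on them. CCAAT boxes were found in all 18 H2A and all 18 H2B promoters, and in 56 of the 67 histone promoters (83.6%), against 38.6% of all coding promoters. A footprint overlapped one in 22 of 44 open histone genes in replicate 1 and in 18 of 47 in replicate 2, against 31.6% and 32.7% of other open coding genes with the box. E2F sites (TTTNGCGC) lay in 7 H2A and 7 H2B promoters and in no other type, 20.9% of the histone promoters against 1.67% of all. Of the 10 open genes with an E2F site, 7 in replicate 1 and 6 in replicate 2 had a footprint on it, against 45.4% and 47.7% of other open coding genes. As with the octamer, a CCAAT box or E2F site between paired genes, and a footprint on it, can count for both. These genes are therefore not all separate observations. A match is a description of the letters and does not show that a factor was bound.

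H3 pairs with H4 at the centre of the nucleosome. Hist1h3a had the highest value of the type, 6.27 in replicate 1 and 6.17 in replicate 2, but these came from the region at the start of Hist1h4a, about 1 kb away, and no region covered the promoter of Hist1h3a. Hist1h3e had 4.11 in replicate 1 and 4.51 in replicate 2 over its own start. Hist1h3g had 3.86 and 4.47, and Hist1h3b had 3.86 and 4.18, so all 3 were slightly higher in replicate 2. Hist2h3b had 3.19 and 2.85, the region of its neighbour Hist2h2bb. A lower region at the start of Hist2h3b had 1.52 in replicate 1 and 1.94 in replicate 2. Hist1h3i had the lowest value of the H3 genes open in both libraries, 0.811 in replicate 1 and 0.792 in replicate 2. Hist1h3d had a region in replicate 2 alone, with a height of 0.781, and Hist2h3c2 had one there with 0.634. Counting only regions at the own promoter left 7 of the 12 H3 genes open in both libraries, a share near the 55.8% of all coding genes open by the same count.

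H4 genes carried the highest regions. Hist1h4c stood first in both libraries among all 67 genes, with 9.11 in replicate 1 and 8.14 in replicate 2, above 99.1% and 96.5% of all open coding genes. Hist1h4d had 7.14 and 6.12. Hist4h4, the only gene of its cluster, had 6.07 in replicate 1 and 8.04 in replicate 2. Hist1h4a had 6.27 and 6.17, and Hist1h4h had 5.71 and 4.80. Hist1h4f had 2.44 and 2.21, Hist1h4b had 2.51 and 2.11, and Hist1h4j had 1.82 and 1.69. The values of Hist1h4j came from a region before its start, 684 bp from it in replicate 1 and 664 bp in replicate 2. A lower region nearer to that start had 1.63 in replicate 1 and 1.51 in replicate 2. In each library 8 of the 11 H4 genes open in both exceeded the median of all open coding genes. The median stayed the highest of the types under each of 13 other ways of counting regions and genes, 1 of which left no open H2A or H3 gene to compare.

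H4 promoters share an element, known as site II, that the zinc finger factor HINFP binds in mammals. Its core letters GGTCCG were found within 250 bp before to 50 bp after the start in 12 of the 13 H4 genes, always on the strand of the gene and between -80 and -11. Hist1h4a had none in this window. Among the other types 2 H3 genes and 1 H2B gene had the letters, and 9.71% of all coding promoters did. The 40 bases around each core are shown because this stretch carried the footprints of the type, with the core in capitals; each is mm10 sequence read along the gene.
Hist1h4b, chr13:23756926-23756965, plus strand: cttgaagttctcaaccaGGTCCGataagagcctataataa
Hist1h4c, chr13:23698482-23698521, minus strand: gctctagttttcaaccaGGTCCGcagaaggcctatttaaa
Hist1h4d, chr13:23581504-23581543, plus strand: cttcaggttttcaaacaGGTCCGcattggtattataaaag
Hist1h4f, chr13:23551692-23551731, minus strand: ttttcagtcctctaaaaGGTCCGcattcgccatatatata
Hist1h4h, chr13:23531022-23531061, plus strand: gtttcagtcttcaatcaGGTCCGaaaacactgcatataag
Hist1h4i, chr13:22041386-22041425, minus strand: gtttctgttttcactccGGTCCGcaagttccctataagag
Hist1h4j, chr13:21734999-21735038, plus strand: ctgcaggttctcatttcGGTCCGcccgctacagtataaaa
Hist1h4k, chr13:21750563-21750602, minus strand: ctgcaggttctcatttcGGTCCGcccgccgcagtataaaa
Hist1h4m, chr13:21811682-21811721, plus strand: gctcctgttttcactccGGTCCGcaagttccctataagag
Hist1h4n, chr13:21832221-21832260, minus strand: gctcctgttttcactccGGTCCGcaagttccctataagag
Hist2h4, chr3:96263357-96263396, minus strand: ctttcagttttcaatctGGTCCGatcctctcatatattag
Hist4h4, chr6:136804441-136804480, minus strand: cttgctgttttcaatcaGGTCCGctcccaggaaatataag

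Hist1h4m and Hist1h4n, neither of which had a region, have the same 40 letters. A footprint overlapped the core in all 10 open H4 genes that hold it in replicate 1. In replicate 2 it did so in 8 of the 10, with none at Hist1h4h or Hist1h4j. Among other open coding genes with the letters, a footprint overlapped them in 26.0% in replicate 1 and in 29.5% in replicate 2. Of all 13 H4 genes, 10 in replicate 1 and 9 in replicate 2 were covered by a footprint at -60 bp from the start. At Hist1h4c the footprint of replicate 1 was 45 bases long. A footprint is a list entry with the same p-value of 0.01 in every row, so its strength could not be compared between genes.

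**Figure D3:**
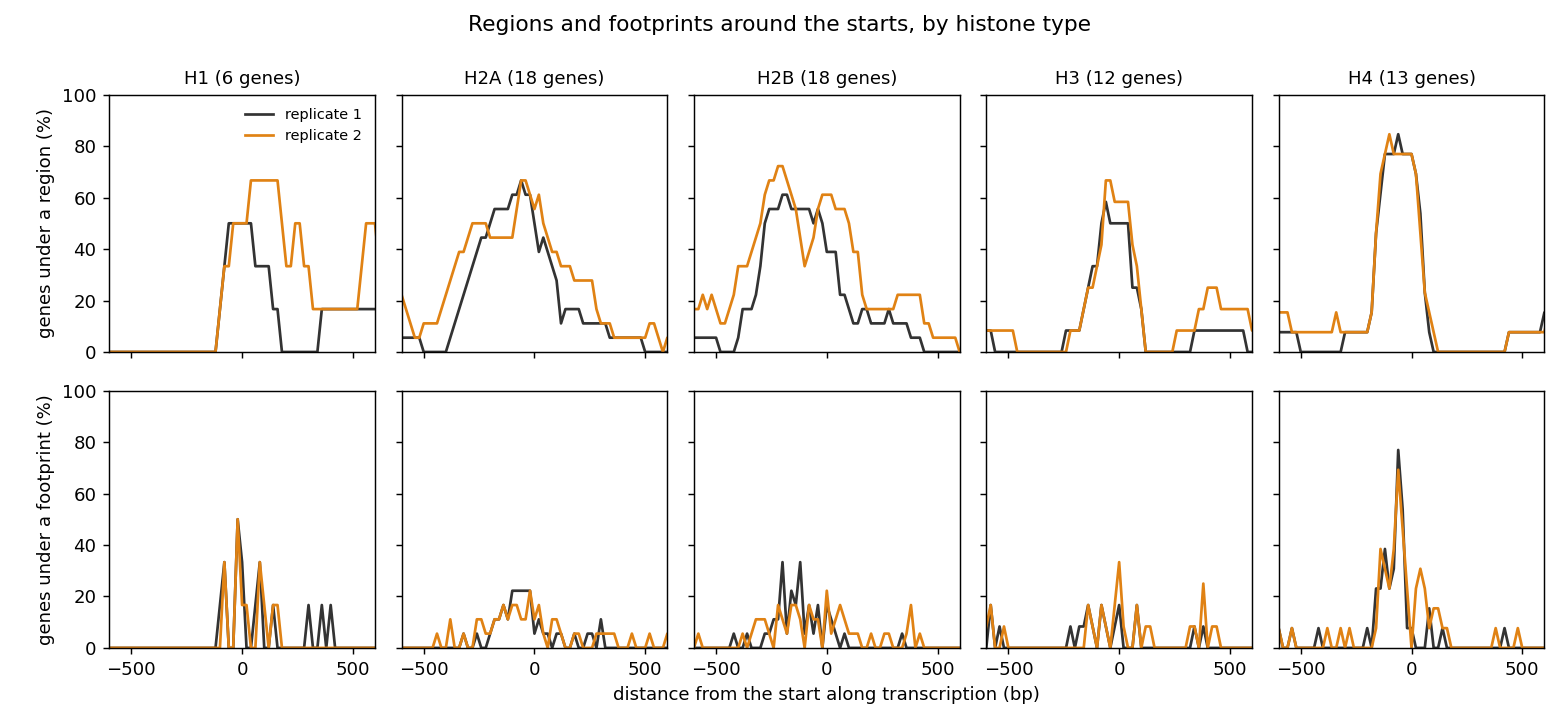
Share of the genes of each type covered by a region (upper row) and by a footprint (lower row) at each distance from the 5′-most start, in replicates 1 and 2; genes without a region are included. Footprints at H4 genes stack at -60 bp, where 10 of 13 genes in replicate 1 and 9 in replicate 2 were covered. In the other types the greatest share at any distance was 50%, at H1 genes in both libraries.

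Regions at H4 genes lay just before the start, with a median centre at -67 bp in replicate 1 and -60 bp in replicate 2. The centre was within 150 bp of the start in 90.9% and 81.8% of the open H4 genes, against 75.6% and 74.1% of all open coding genes. Over all open histone genes, the median number of footprints in the regions was 4 in replicate 1 and 5 in replicate 2, against 5 and 6 for all open coding genes. Few of all open coding genes lacked a footprint, 97 of 12657 in replicate 1 and 68 of 13589 in replicate 2. No open histone gene lacked one, which therefore does not set these genes apart. The counts were greatest at Hist1h4h, with 17 in replicate 1 and 14 in replicate 2, at Hist3h2a, with 11 and 22, and at the pair Hist2h2ac and Hist2h2be, with 11 and 15. Hist1h2af had 1 in each library.

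TATA boxes (TATAAA, both strands) lay in 37 histone promoters (55.2%), against 12.7% of all coding promoters, and GC boxes (GGGCGG, both strands) in 28 (41.8%), against 43.7%. Of the 28, 10 were H4 promoters. Matches between paired genes can count for both here too. The median GC content of the histone promoters was 45.3%, against 55.3% for all coding promoters. Their median ratio of observed to expected CpG was 0.750, against 0.540.

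The 12 genes without a region in either library were Hist1h1d and Hist1h1t, Hist1h2aa, Hist1h2ab, Hist1h2ao and Hist1h2ap of H2A, Hist1h2ba, Hist1h2bq and Hist1h2br of H2B, Hist2h3c1 of H3, and Hist1h4m and Hist1h4n of H4. At 9 of them no base within 1000 bp was listed at a false discovery rate up to 0.05 in either library. The exceptions were Hist1h2ab, with 0.00195 in replicate 2, Hist1h4m, with 0.00839 in replicate 1 and 0.00106 in replicate 2, and Hist1h4n, with 0.0394 in replicate 1. In the longer lists Hist1h4m was open in both libraries, Hist1h4n in replicate 1 and Hist1h2ab in replicate 2. Hist1h2aa, Hist1h2ba and Hist1h1t are the testis histones H2A, H2B and H1, made in developing sperm cells.

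Sequence shared between copies ran along with the missing regions. Within 1000 bp on either side of the start, 7 of the 12 genes had fewer than 50% of their words of 32 bases unique in the genome. No word was unique at Hist1h2ao, Hist1h2ap, Hist1h2bq or Hist1h2br, and 4.21% were at Hist1h4m and 4.26% at Hist1h4n. These 6 stand together in the first Hist1 group, where Hist1h2bq shares 99.9% of its words with Hist1h2br, Hist1h2ao shares 98.5% with Hist1h2ap, and Hist1h4m shares 80.1% with Hist1h4n. Hist2h3c1 had 19.4% unique words and its near copy Hist2h3c2 had 20.4%. Of the 10 histone genes under 50%, 2 were open in both libraries, and of the 57 at 50% or more, 50 were, against 63.3% of all coding genes at 50% or more. Among all coding genes under 50%, 9.47% were open in both libraries. Whether the authors kept reads that match several places was not known, so a lack of regions there cannot be told apart from a lack of accessibility. The 5 other genes without a region had between 85.9% and 100% unique words. Uniqueness was computed on the reference, which is C57BL/6J, and CAST/EiJ alleles were not examined.

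**Figure D4:**
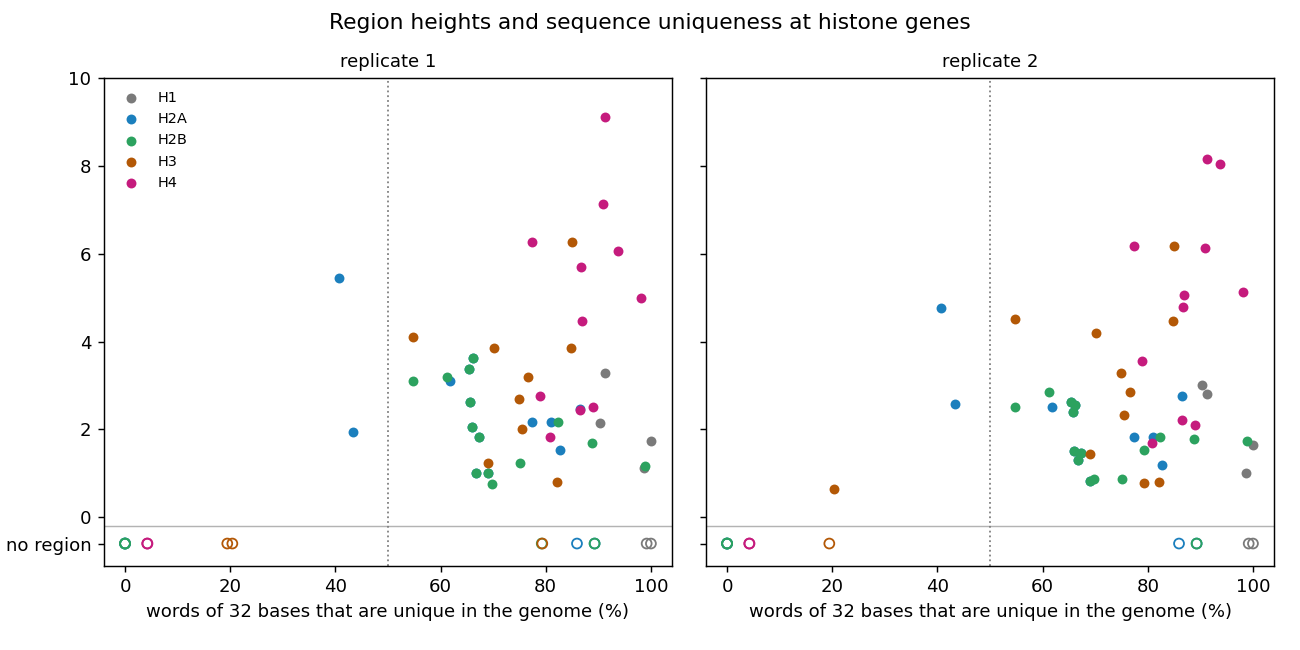
Height of the highest region against the share of 32-base words within 1000 bp of the start that occur once in the genome, for each histone gene in each library. Open circles in the bottom strip have no region; the dotted line is at 50%, and paired H2A and H2B genes with 1 region lie on top of each other. All genes under 5% lie in the bottom strip in both libraries.

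Heights at the histone genes were lower in replicate 2 than in replicate 1 in 34 of 52 genes (65.4%), against 12.4% of all coding genes open in both libraries. The median log2 ratio of replicate 2 to replicate 1 was -0.15 (SD 0.29 over the 52 genes), against 0.32 (SD 0.29) over all such coding genes. Genes that take their value from 1 region, such as those of the 9 H2A/H2B pairs, repeat the same ratio. The 52 values are therefore not separate observations. Where the highest region was not the same in both libraries, as at Hist1h2be and Hist1h2bh, the ratio compares different regions. By type the medians were -0.12 for H1, -0.28 for H2A, -0.28 for H2B, 0.13 for H3 and -0.10 for H4. The 41 histone genes with 50% to 90% unique words had a median of -0.16, against 0.31 for other coding genes in that class. The 9 with 90% or more had -0.08, against 0.33, and the 2 under 50% had 0.10, against 0.17. By promoter GC content the histone median was -0.24 in the 18 genes at 40% to 45%, -0.24 in the 15 at 45% to 50% and -0.10 in the 9 at 50% to 55%. It was above 0 in the other classes, at 0.22 in the 6 genes under 40%, 0.17 in the 2 at 55% to 60% and 0.10 in the 2 at 60% to 65%. Both medians of -0.24 are the same ratio, that of Hist2h2ab, Hist2h2ac and Hist2h2be, and it compares different regions in the libraries. The medians of other coding genes in these 6 classes lay between 0.29 and 0.37. Both libraries are of the same group, so this is a difference between samples of 1 kind, whose cause was not tested.

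Replacement histone genes were looked up for comparison, and 11 of 13 were open in both libraries (84.6%), against 60.5% of all coding genes. Their median heights were 3.84 in replicate 1 and 4.52 in replicate 2. H2afv had 7.55 and 8.76, H2afj had 6.67 and 8.67, and H2afz, the other H2A.Z gene, had 6.40 and 7.29. H2afx had 6.78 in replicate 1, above H2afj and H2afz, and 6.36 in replicate 2, below both. The genes for the replacement histone H3.3, H3f3a and H3f3b, had 3.84 and 4.52, and 4.83 and 4.37. H1f0, the linker histone of resting cells, had 3.56 in replicate 1 and 6.63 in replicate 2. H1fnt, of the testis, and H1foo, of the oocyte, had no region in either library. Both had over 90% unique words.

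Of 14 genes for the transcription and 3′ processing of histone messages, 13 were open in both libraries (92.9%), against 60.5% of all coding genes. Their medians were 3.89 in replicate 1 and 4.80 in replicate 2. Npat, the coactivator of the clusters, had 7.34 and 7.23. Cpsf3, the nuclease that cuts the message, had 6.58 and 7.40. Lsm11, a subunit of the U7 particle, had 5.18 in replicate 1 and 8.62 in replicate 2. Hinfp had 5.41 and 5.59, and Slbp, the stem-loop binding protein, had 3.76 and 4.97. Gon4l was open in replicate 2 alone, at 0.612, and 18.3% of its words were unique.

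All 18 S phase genes looked up were open in both libraries, against 60.5% of all coding genes, with medians of 3.67 in replicate 1 and 4.09 in replicate 2. Mcm5, a subunit of the replicative helicase, had 8.35 and 10.0. Top2a, the topoisomerase of dividing cells, had 7.25 and 7.997, and Ccne1, the cyclin of entry into S phase, had 6.81 and 8.43. The lowest of the 18 were at 1.37 in replicate 1 and 1.39 in replicate 2. In each library the medians of these 3 lists lay above that of the replication-dependent histone genes and above that of all open coding genes, while the ranges of all 4 overlapped.

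**Figure D5:**
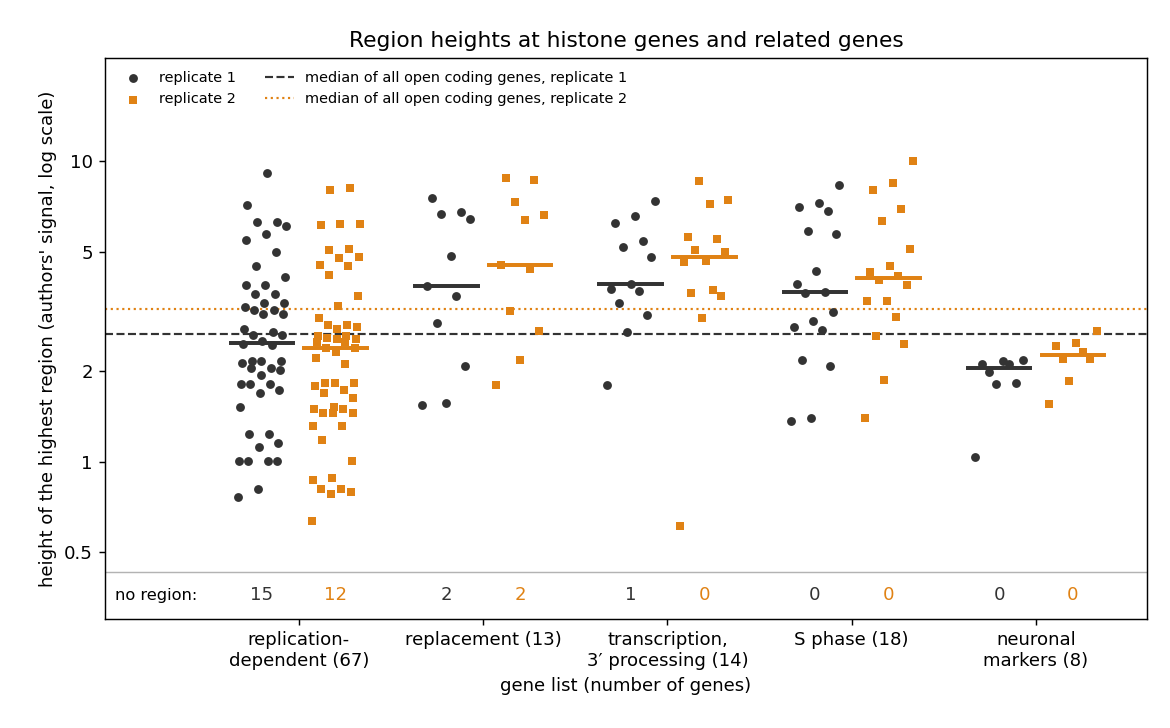
Height of the highest region (authors' signal, log scale) at replication-dependent histone genes, replacement histone genes, genes for transcription and 3′ processing of histone messages, S phase genes and neuronal markers; bars are medians and the bottom row counts genes with no region. Medians of the replication-dependent genes, 2.49 and 2.40, lie below those of the 3 related lists and above those of the neuronal markers in both libraries.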

How the data were processed

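The authors deposited, per library, region lists in narrowPeak format with a signal height per region, derived from filtered alignments to mm10 of that library and from a source left unnamed, per the notes deposited beside the files. They also deposited footprints with a constant p-value of 0.01, and for single bases an FDR of the cut rate, a kind of adjusted p-value, listed up to 0.05, per the same notes and the values. The sources used here give neither caller nor threshold. Heights were taken as the authors gave them, and only to rank and describe regions.

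Starts, stop codons and symbols were from GENCODE mouse M21; sequence was from the reference GRCm38, and no region ended past a chromosome end. RefSeq starts were an alternative. A gene was open with a region of the shorter list within 1000 bp of a start. Footprints were counted inside those regions, and a footprint on a motif overlapped it by at least 1 bp. Words of 32 bases were counted over the reference on both strands. Motifs were searched on both strands from 250 bp before to 50 bp after the 5′-most start, without allowance for overlap between motifs. Cstf2, on the X chromosome, was left out of its list.

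The genes, lists and motifs were chosen with earlier results of these data known. Any histone gene could be named. Full values were for the highest and lowest of each type, those without a region, those with most footprints and the 3 highest of each list. Hinfp, Slbp, H1f0, H2afx, H3f3a and H3f3b were named after their values were seen. Genes are not replicates, so no test was made over them. Alternatives covered the longer list, 500 and 2500 bp, the stronger 50% of regions, equal numbers of regions, the 5′-most start, each library alone and unique sequence. Gene assignment was tested on simulated regions. Python 3.11.15, pandas 2.3.3, numpy 2.4.6, numba 0.67.0 and matplotlib 3.10.9 were used.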

Additional observations from a re-analysis of the deposited data

How the results depend on the processing

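The number of histone genes open in both libraries, 52, lay between 44 and 58 with the longer list, other distances, fewer regions, the 5′-most start or 1 library. It was lowest with the stronger 50% of regions, 44 of 67, against 52.2% of all coding genes. It was highest within 2500 bp, 58 of 67, against 63.3%. It was 52 in replicate 1 alone, against 60.8%, and 55 in replicate 2 alone, against 65.3%. It was 9 of 11 among genes with 90% or more unique words, because most genes were left out. In that class 7 of 9 in Hist1, 1 of 1 in Hist2, 1 of 1 among H2B and 4 of 4 among H4 were open. The H2B gene, Hist1h2be, was classed by the surroundings of its 5′-most start, which lies 35168 bp before its first coding base. All coding genes in that class were open in 67.4%. Counts for the 3 related lists stayed within 1.5 times in every alternative run.

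The median height of open histone genes, 2.44 over both libraries, became 2.31 with the longer list, 2.29 within 500 bp, 2.61 within 2500 bp, 2.61 with the stronger 50% of regions, 3.14 in genes with 90% or more unique words, 2.21 with the nearest region and 2.35 with regions at the own promoter alone. That of all coding genes was 2.73, 2.94, 2.96, 3.30, 2.96, 2.72 and 2.96 in the same settings, so the histone median was the lower one except among genes with 90% or more unique words. That class held no H2A or H3 gene, and 4 of its 9 open genes were H4, against 11 of 52 in all. Its medians were 6.84 for H4, 2.08 for H1 and 1.45 for the H2B gene. The median number of footprints, 4.5, became 5.5 with the longer list, 3.5 within 500 bp, 6.25 within 2500 bp, 6 in genes with 90% or more unique words and 6 when all footprints within 1000 bp of a start were counted. That of all coding genes, 5.5, was 6.5, 5.5, 6.5, 6 and 8 in these settings. Averaged over both libraries, the histone median was therefore not the lower one among genes with 90% or more unique words. Its value there, from 9 open genes, had an SD of 2.83 between the libraries, so the order was not settled. The cause of these shifts was not tested. The log2 ratio between libraries stayed below 0 in all 8 alternatives, between -0.15 and -0.02. Footprints on the H4 core, 8 genes in both libraries, were found at 10 in replicate 1 alone and at 8 in replicate 2 alone, and at 6 in both where a single footprint had to hold the whole core.

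Regions at the own promoter, RefSeq starts, 50% unique words and the whole core were chosen after seeing the data. No paired analysis was possible because the libraries form 1 group. Unknown read depth, 2 libraries and near copies of sequence limit what a missing region shows.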
